A study of Mus musculus with 2 samples.

Results

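The NADPH oxidase subunits are 9 genes, Nox1, Nox4, Cybb, Cyba, Ncf1, Ncf4, Noxa1, Noxo1 and Rac1, out of 20887 genes named on the array. They were taken as every gene probe whose RefSeq accession belongs to one of these symbols, which gave 13 probes: 2 each for Nox1, Nox4, Cyba and Rac1, and 1 for each of the other genes. The cells were cultured primary pericytes from the cavernous tissue of the penis of C57BL/6 mice; pericytes are the contractile cells that wrap small vessels. The high glucose group was labelled 30 mmol glucose and the normal glucose group 5 mmol, without a volume, both for 72 h. Both groups grew in DMEM with fetal bovine serum, antibiotics and added human pigment epithelium-derived factor. RNA of 3 samples was pooled per group and hybridised to 1 Agilent 1-colour array, so each value below is 1 reading of a pool, and no difference has a replicate check or a p-value.

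NADPH oxidases move electrons from NADPH across a membrane to oxygen and so make superoxide or hydrogen peroxide. Each holds a catalytic subunit, such as Nox1, Nox4 or Cybb (Nox2), which is stabilised by the small membrane protein Cyba (p22phox). Cybb is active after cytosolic proteins, among them Ncf1 (p47phox) and Ncf4 (p40phox), and a Rac GTPase have joined it. Nox1 works with the organiser Noxo1, a counterpart of Ncf1, and the activator Noxa1. Nox4 is known to need Cyba but none of the cytosolic activators, and in vessels it is described mainly in smooth muscle, endothelial and mural cells, while Cybb is best known from phagocytes.

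The comparison asks whether oxidase transcripts of these cells differ after exposure to high glucose. Of the 9 subunits, 7 were measured on both arrays, that is, their brightest probe was well above background and unsaturated on each; Nox1 was well above background in high glucose alone and Cybb on neither array, though both passed the software's weaker mark, positive and significant signal, on both. None of the 7 measured subunits differed by 1.2-fold or more, and none by 2-fold. Over the 14176 named genes with a measured brightest probe, 12.3% passed 1.2-fold in either direction and 0.917% passed 2-fold. With so few members, a count of 0 is close to this background. The log2 ratios of high over normal glucose ran from -0.12 for Cyba to 0.14 for Ncf1, with a median of -0.03 for the 7 subunits and -0.007 for all measured genes. Of the 7, 3 had ratios above 0 and 4 below. All ratios were taken after each array was scaled to its own 75th percentile, which added 0.08 to the raw log2 ratio.

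**Figure D1:**
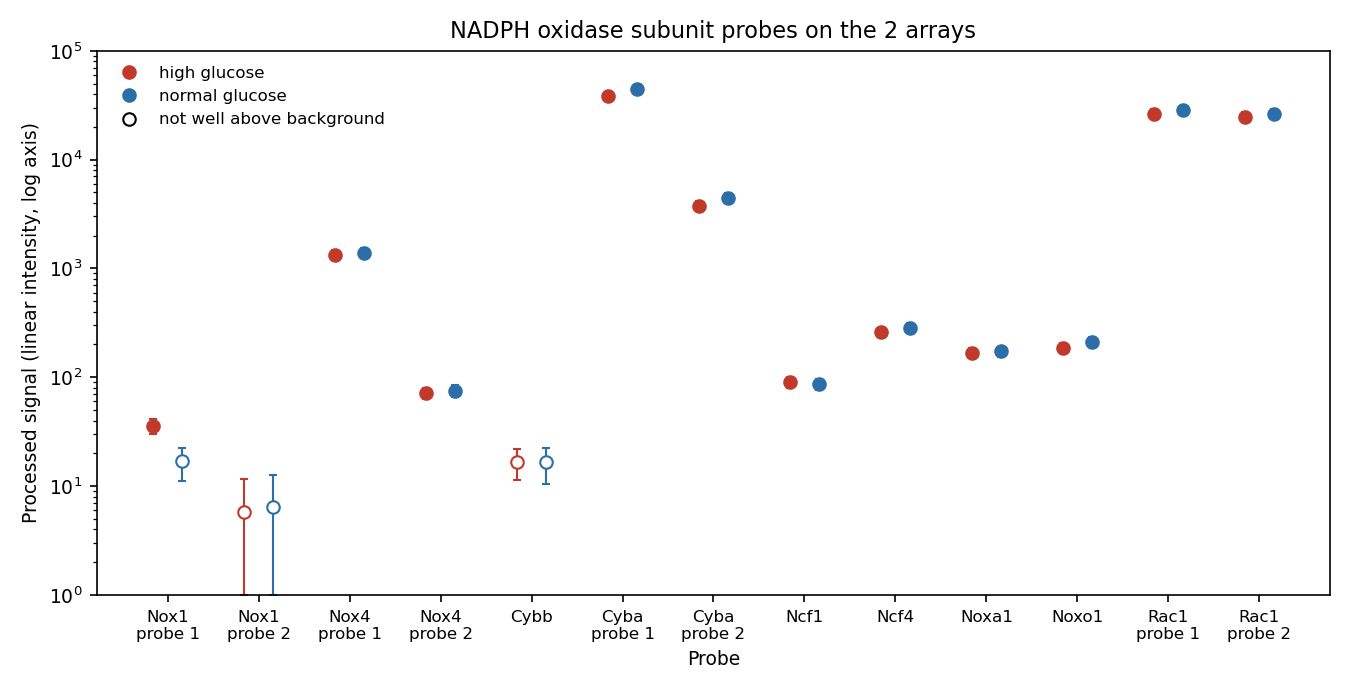
Processed signal (background-subtracted linear intensity, log axis) of the 13 probes for NADPH oxidase subunits, before scaling, with high glucose in red on the left and normal glucose in blue on the right of each pair. Bars are the error the scanner software gives each spot, bars of the second Nox1 probe reach the lower edge of the plot, and open symbols are spots not well above background; for the first Nox1 probe the symbol is filled in high glucose (35.8) and open in normal glucose (16.9), while the points of the 10 probes measured on both arrays lie close together.

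Among the catalytic subunits, Nox4 gave the plainest reading. Its brighter probe had a processed signal of 1342 ± 134 in high glucose and 1400 ± 140 in normal glucose (± the error the scanner software gives the spot). Its other probe had 71.2 ± 8.62 in high glucose and 75.04 ± 9.29 in normal glucose. After scaling, the log2 ratios of high over normal glucose were 0.02 and 0.003, so both Nox4 probes were nearly the same in the 2 pools. Of measured genes with a mean signal from 512 to 4096, 84.7% had a ratio at least as far from 0 as the brighter probe.

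Nox1, the catalytic subunit best known from colon epithelium and smooth muscle, was near the limit of detection. The first probe had a signal of 35.8 ± 5.98 in high glucose, well above background, and 16.9 ± 5.62 in normal glucose, positive and significant but not well above background. With the lowest normal glucose spot well above background, 26.9, as floor, the scaled reading was 1.41-fold higher or more in high glucose. That figure takes the high glucose reading as exact, while the software error of this ratio was 0.54 on the log2 scale. It is therefore no firm lower limit on the difference. The second Nox1 probe was not above background on either array, with 5.74 in high and 6.37 in normal glucose. Dim spots around the first probe had a median pixel log2 ratio of -0.11 relative to all dim spots. Background was not subtracted for that value, which draws dim spots toward 0, so it cannot be set against the processed ratio. Of the 308 negative control spots, 8 were well above background in high glucose and 7 in normal glucose, and the brightest had a signal of 114 in high and 170 in normal glucose. A single spot of 35.8 thus lies within the range that control spots reached. Among all 20887 named genes, 2.45% had a brightest probe well above background in high glucose alone, 1.66% in normal glucose alone and 28.0% on neither array.

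Cybb stayed below the mark for well above background in both pools, with a signal of 16.7 ± 5.34 in high glucose and 16.6 ± 6.00 in normal glucose. By the weaker mark of the scanner software, positive and significant over background, its 1 probe passed on both arrays. No ratio is given for a signal this close to background.

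Cyba, the membrane partner that Nox1, Nox4 and Cybb share, had the lowest ratio of the family. Its brighter probe had 38372 ± 3837 in high glucose and 44065 ± 4407 in normal glucose, a log2 ratio of -0.12 or 1.09-fold lower in high glucose. The other probe had 3751 ± 375 in high and 4474 ± 447 in normal glucose, a log2 ratio of -0.17 or 1.13-fold lower. Both probes lay on the same side of 0, and so did the ratios from median pixel signals, at -0.15 and -0.19. Both ratios were larger than the spread between repeated spots at this brightness: probes printed 10 times with a mean signal above 4096 had a median SD of 0.032 over 94 probes. Both were smaller than the error the scanner software assigns to such a ratio, 0.20 on the log2 scale. Differences of this size were common, since 15.1% of the 4711 measured genes above a signal of 4096 had a ratio at least as far from 0. Among 3632 genes with at least 2 measured probes, 187, or 5.15%, had both of their brightest probes at least as low as the higher Cyba probe. None of these errors covers differences between cultures, which 1 pool per condition cannot show.

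Ncf1 and Ncf4, cytosolic subunits that serve Cybb, were both detected. Ncf1, the organiser that carries the complex to the membrane, had 89.6 ± 10.3 in high glucose and 86.3 ± 10.4 in normal glucose, a log2 ratio of 0.14. This was the highest ratio of the 7 subunits measured on both arrays, but it came from a dim spot. Repeated spots below a signal of 128 had a median SD of 0.25, and 64.7% of the 2125 genes in that range were at least as different. Ncf4, which binds the phosphoinositide of phagosome membranes, had 259 ± 26.5 in high and 284 ± 29.0 in normal glucose, a log2 ratio of -0.05.

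The partners of Nox1 were brighter than background on both arrays. Noxo1, its organiser, had 187 ± 19.5 in high glucose and 211 ± 21.9 in normal glucose, a log2 ratio of -0.09. Noxa1, its activator, had 167 ± 17.7 in high and 173 ± 18.5 in normal glucose, a log2 ratio of 0.03. Repeated spots with a mean signal from 128 to 512 had a median SD of 0.10, so both Nox1 partners and Ncf4 differed by less than the spread between spots.

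Rac1, the GTPase that serves Nox1 and Cybb and also shapes the actin cytoskeleton, had 2 bright probes. One had 26360 ± 2636 in high and 28507 ± 2851 in normal glucose, and the other 24652 ± 2465 in high and 26386 ± 2639 in normal glucose. Their log2 ratios were -0.03 and -0.02. The first of these 2 Rac1 ratios was as large as the spot SD of 0.032 and the second smaller. The sizes of the signals are not an order of abundance, since probes differ in how strongly they bind: the 2 Cyba probes read 38372 and 3751 on the same high glucose array.

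**Figure D2:**
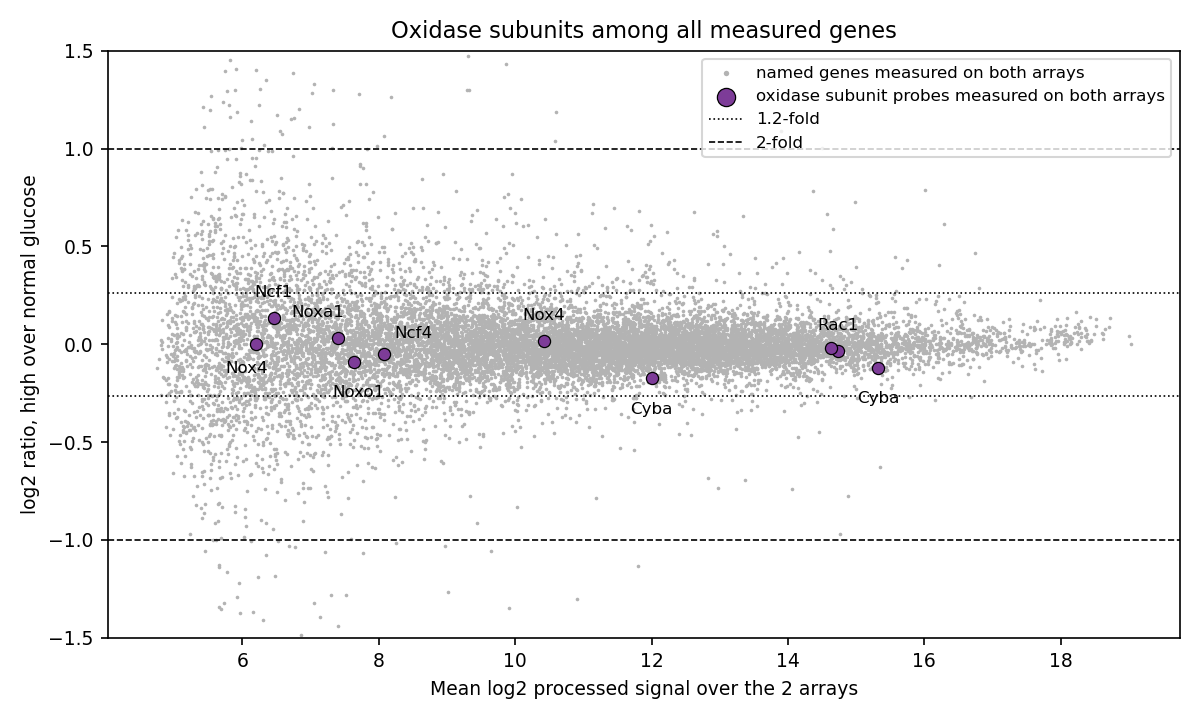
Log2 ratio of high over normal glucose against the mean log2 processed signal, for the 14176 named genes measured on both arrays (grey) and the 10 subunit probes measured on both (purple). Dotted lines mark 1.2-fold and dashed lines 2-fold, 46 genes lie outside the vertical axis, and the subunit probes lie between the dotted lines at every signal level.

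The other genes of the pathway were described with 9 lists of 135 genes, of which 132 had a named probe and 119 were measured on both arrays. At least 1.2-fold differences were seen in 4 that were higher and 4 that were lower in high glucose, or 6.72% of the 119. Over all measured genes the share in either direction was 12.3% (6.80% higher and 5.51% lower). That share depended on signal, from 40.8% of genes below 128 to 2.44% of genes above 4096. The lists were not matched to all genes in signal, so 6.72% and 12.3% are not a like comparison. With each array centred on its median instead, the split over all genes was 711 higher and 1192 lower, against 964 higher and 781 lower as reported. None of the 119 passed 2-fold, and their median log2 ratio was -0.001.

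Of the catalytic and maturation partners outside the set, 3 of the 5 with a probe were measured and none passed 1.2-fold. Duox1, an oxidase with a peroxidase-like domain, was printed 10 times, with signals from 39.9 to 143 (median 43.8) in high glucose and from 38.7 to 55.7 (median 50.6) in normal glucose. The high glucose spot of 143 stood far above the other spots, and the ranges overlapped. The mean log2 ratio over the 10 Duox1 spots was 0.12 (SD 0.58), and -0.05 (SD 0.26) without that spot. Nrros, which limits the amount of Cybb protein in phagocytes, had a log2 ratio of 0.06. Nox3, the oxidase of the inner ear, was not above background on either array.

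Rac relatives and other cytosolic activators were measured in 4 of 5 cases, none past 1.2-fold. Rac2, the Rac of blood cells, was also printed 10 times, with signals from 114 to 145 (median 132) in high glucose and from 94.6 to 296 (median 118) in normal glucose. Its ratio was above 0 at 9 of the 10 spots, with a mean log2 ratio of 0.14 (SD 0.46), and 0.28 (SD 0.15) without the one normal glucose spot of 296. Without that spot the Rac2 mean lies past 1.2-fold. Rac3 had a log2 ratio of 0.23, with 960 in high and 863 in normal glucose.

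Among regulators of Rac, 18 of 22 were measured, 1 past 1.2-fold in each direction, with a median log2 ratio of -0.03. Racgap1, a GTPase-activating protein that also acts in cell division, had a log2 ratio of 0.28 and its other probe 0.16. Arhgdig, a GDP dissociation inhibitor (GDI) of small GTPases, had -0.26 and its other probe -0.27.

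Scaffolds and chaperones that bind the oxidases were all measured, 16 of 16, and 1 of them passed 1.2-fold, with a median log2 ratio of 0.03. That gene was Sh3pxd2a (Tks5), a scaffold of the Ncf1 type found in podosomes. One Sh3pxd2a probe had 95.5 ± 10.8 in high glucose and 143 ± 15.4 in normal glucose, a log2 ratio of -0.50. The other had 58.7 ± 7.88 in high and 97.9 ± 11.45 in normal glucose, a log2 ratio of -0.66. Both differences exceeded the software error of the ratio, 0.23 and 0.26, though both probes were dim in high glucose, where repeated spots had an SD of 0.25. Its relative Sh3pxd2b (Tks4) had a log2 ratio of -0.10. Poldip2, a protein known to raise the activity of Nox4, had 6469 ± 647 in high glucose and 6428 ± 643 in normal glucose, a log2 ratio of 0.09. Pgrmc1, a haem-binding membrane protein, had -0.14.

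The kinases known to act upstream of the oxidases were measured in 16 of 17 cases, 1 past 1.2-fold in each direction. Prkce, a protein kinase C, had a log2 ratio of 0.28 and the tyrosine kinase Src -0.28, both from signals below 100. Receptors and ligands that drive oxidase expression were measured in 16 of 19 cases, with 1 lower past 1.2-fold. It was Ace, the angiotensin-converting enzyme, at -0.32 with signals of 111 in high and 148 in normal glucose. Agtr2, the type 2 angiotensin receptor, had 0.24 from signals of 71.9 in high and 64.5 in normal glucose.

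Enzymes that remove superoxide and peroxide were all measured, 17 of 17, and none passed 1.2-fold, with a median log2 ratio of -0.01. Sod3, the extracellular superoxide dismutase, had 88361 ± 8836 in high glucose and 79696 ± 7970 in normal glucose, a log2 ratio of 0.23, the farthest from 0 in this list. Sod2, the mitochondrial one, had -0.01. Catalase (Cat) had -0.08 and its other probe -0.18, and Prdx4, a peroxiredoxin of the endoplasmic reticulum, had -0.15. Hmox1, haem oxygenase 1, gave the scale of a large difference on these arrays. Its brighter probe had 97417 in high glucose against 11703 in normal glucose, a log2 ratio of 3.14. The other Hmox1 probe had 5432 in high and 1276 in normal glucose, a log2 ratio of 2.17.

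Other sources of reactive oxygen, with channels that pass peroxide, were measured in 19 of 21 cases. Of these, 11 had ratios above 0 and 8 below. The 2 past 1.2-fold were both higher, and both were channels. Aqp1, a water channel that can also pass hydrogen peroxide, had 3056 in high glucose and 2136 in normal glucose, a log2 ratio of 0.60 or 1.51-fold, from 1 probe. The other was Aqp3, a glycerol and peroxide channel, at 0.32 from dim signals of 38.6 in high and 32.8 in normal glucose, which is named because it completes this count. Next farthest from 0 in this list was Xdh, named after its values were seen. Xdh had 4190 in high and 5292 in normal glucose, a log2 ratio of -0.26, short of 1.2-fold. For the supply of NADPH, 10 of the 11 listed genes were measured and none passed 1.2-fold. Nadk2, the mitochondrial NAD kinase, had 0.18 and Me1, malic enzyme, 0.09.

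**Figure D3:**
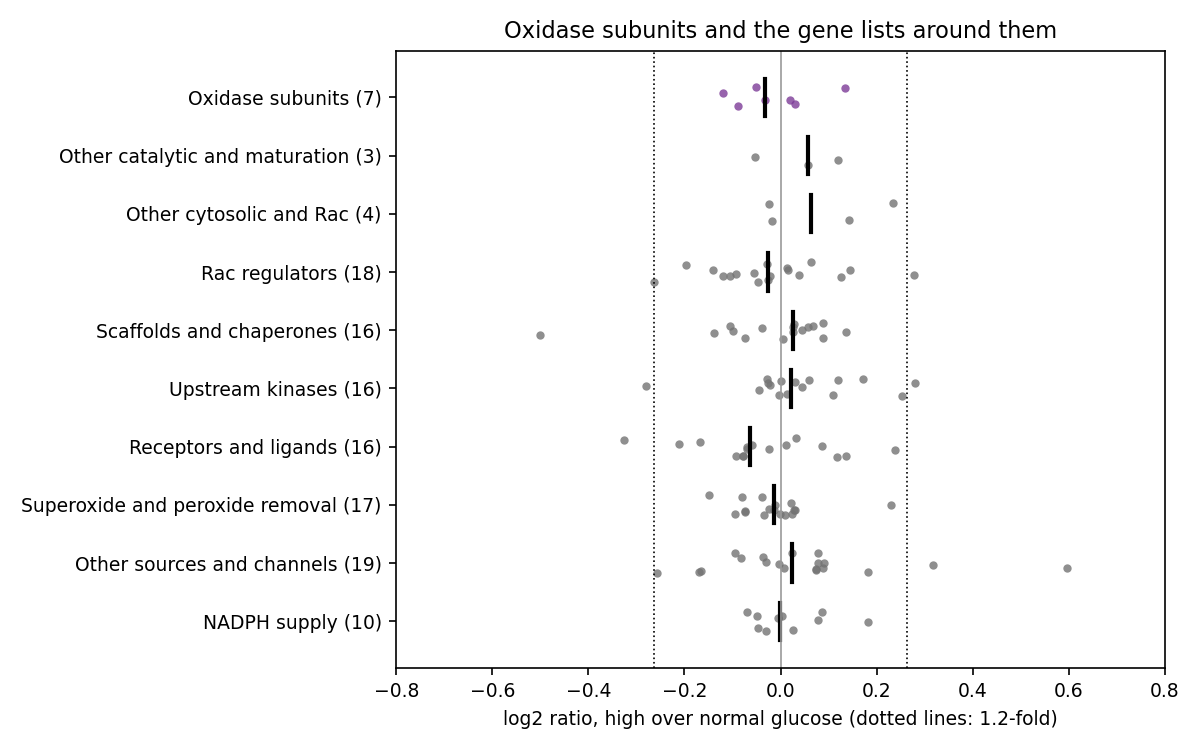
Log2 ratio of high over normal glucose for the 7 measured oxidase subunits (purple) and the measured genes of the 9 lists around them (grey), with the number measured in brackets and the median as a black bar. Dotted lines mark 1.2-fold; the subunits all lie inside them, and Aqp1 at 0.60 and Sh3pxd2a at -0.50 are the points farthest from 0.

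Markers of phagocytes and other leukocytes, the cells in which Cybb, Ncf1 and Ncf4 are best known, were read beside these genes. Of 24 such markers with a named probe, 19 were measured on both arrays, and the summed signal of the 24 was 122897 in high glucose and 120252 in normal glucose. Most of that sum came from Ly6c1 and Itgam; the other 22 markers summed to 17664 in high and 17184 in normal glucose. Itgam (CD11b) had 22557 in high and 21959 in normal glucose on its brightest probe, a log2 ratio of 0.12. Its other probes were far dimmer and lower in high glucose. One had 31.3 in high and 46.5 in normal glucose, a log2 ratio of -0.49. The other had 73.8 in high and 90.7 in normal glucose, a log2 ratio of -0.22. Ly6c1, also known from endothelial cells, had 82675 in high and 81109 in normal glucose. Csf1r, the receptor of macrophage growth factor, had 4820 in high and 4682 in normal glucose. The log2 ratio of this Csf1r probe was 0.12, and those of its 2 other measured probes 0.03 and -0.14. Ptprc (CD45), which defines leukocytes, was dim, with 42.5 in high and 39.1 in normal glucose. Fcgr1, Spi1, Cx3cr1, S100a9 and Mpo were dim on both arrays. Of the 19 measured, 14 had ratios above 0, with a median of 0.11. Past 1.2-fold, 2 were higher and 1 lower, beside 12.3% of all measured genes in either direction. The higher ones, named after their values were seen, were Cd14 and Fcgr3. Cd14 had 2201.6 in high and 1930.5 in normal glucose, a log2 ratio of 0.27. Fcgr3 had 141.8 in high and 121.3 in normal glucose, a log2 ratio of 0.31. The lower one was Cd74, the invariant chain of antigen-presenting cells, named after its values were seen, with 27.9 in high and 89.2 in normal glucose. Its log2 ratio of -1.60, or -0.60 from median pixel signals, was the farthest from 0 in this list and past 2-fold. In such bulk RNA, a different number of cells of a type and a different amount of RNA per cell cannot be told apart. The part of other cells in the Ncf1 and Ncf4 signals was not tested. Of 14 pericyte markers, 12 were measured, among them Pdgfrb, Mcam and Cd248. Pdgfrb had 18161 in high and 17471 in normal glucose, a log2 ratio of 0.136. Mcam had 24211 in high and 25507 in normal glucose, a log2 ratio after scaling of 0.005. Cd248 had 54704 in high and 61844 in normal glucose, a log2 ratio of -0.097.

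The sign of the small ratios depended on processing for Nox4, Noxa1 and Rac1. Over the 12 alternatives tried, Cyba kept a ratio below 0 in all 12, from -0.18 to -0.11. Some of the 12 could not change a subunit's ratio. The deposited value table holds the same signals, and the gene filters only choose which genes are kept. Ncf1 stayed above 0, from 0.07 to 0.14, and Ncf4 and Noxo1 below 0 in the 11 alternatives that kept them. Nox4 ran from -0.04 to 0.03, Noxa1 from -0.06 to 0.04 and Rac1 from -0.09 to 0.01.

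**Figure D4:**
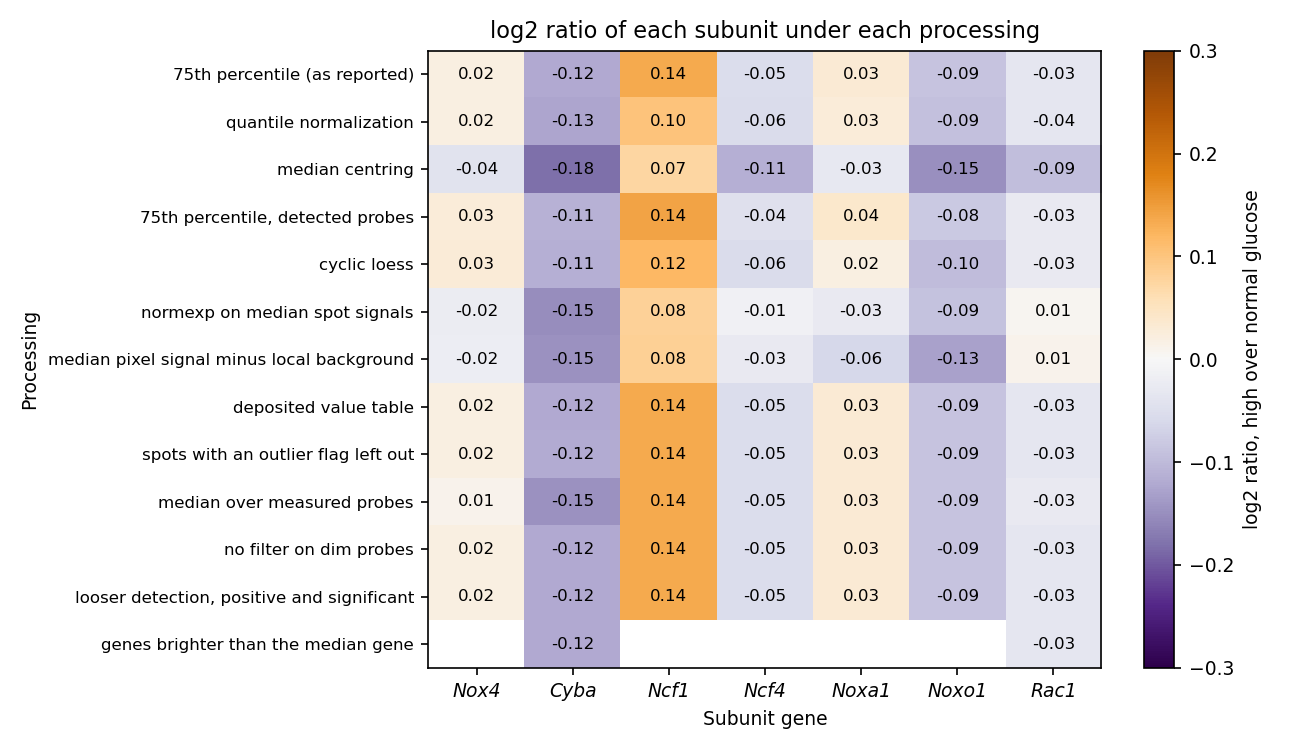
Log2 ratio of high over normal glucose of each of the 7 measured subunits (columns) under each processing (rows), printed in the cells and coloured from purple (lower in high glucose) to orange (higher). The first row is as reported, empty cells are genes left out by that filter, and Cyba lies between -0.18 and -0.11 in every row.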

How the data were processed

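The deposited intensity values come from 1-colour Cy3 scans read with Feature Extraction 11.5.1.1, per the file headers, and are background-subtracted and detrended within the array but not scaled between arrays; version 9.3.2.1 of Agilent Feature Extraction stands in the submitters' processing notes, and which was used is not settled. Very dim signals are small positive surrogates. The deposited value table matched the processed signal on both arrays for 55249 of 55249 probes with 1 spot (relative tolerance 0.0001). Its column medians were 48.9 for high and 49.6 for normal glucose.

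The log2 signal of 59305 gene spots was averaged per probe, and the 75th percentile of the probes of an array (733 in high, 774 in normal glucose) was subtracted. Of 55681 probes, 27509 matched 1 symbol of the RefSeq table for GRCm38.p6 by accession and 28172 none; the array design names mm9, so no coordinates are given. A gene was read from its brightest probe, and a probe counted as well above background if 0.5 of its spots were (57.6% of gene spots in high, 56.3% in normal glucose). No spot was saturated. Precision is limited by the number of arrays. Errors given are the software's per spot and the SD of the log2 ratio over spots of probes printed 10 times.

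With 1 array per group no test was possible. Genes were counted at 1.2-fold and 2-fold. Only the 2-fold count was tested on simulated data, with planted changes beyond 2-fold, so that test does not bear on small ratios. The members and lists were chosen with earlier results of these data known. In each pathway list the text names up to 4 genes past 1.5-fold, otherwise the 2 farthest from 0, in marker lists the 3 brightest, and a fixed set of further genes. Of that set, Duox2 and Cd68 matched no probe and 1 gene is not reported here. The files hold no mean pixel signal, so normexp (limma 3.58.1, R 4.3.3, offset 50) used median pixel signals. Quantile and cyclic loess scaling also used limma.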

Additional observations from a re-analysis of the deposited data

How the results depend on the processing

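Each result was recomputed under 12 alternatives: quantile normalization, median centring, the 75th percentile over detected probes, cyclic loess, normexp, median pixel signal minus local background, the deposited value table, spots with an outlier flag left out, the median over probes, no filter on dim probes, a looser detection rule, and restriction to genes above the median signal. The count of subunits past 1.2-fold and past 2-fold was 0 as reported and in 10 alternatives, and 1 in each case with no filter on dim probes and with the looser rule (positive and significant signal on both arrays). That gene was Nox1, which those filters let in at a log2 ratio of 1.17. The median of the subunits ran from -0.09 with median centring to 0.02 without a filter. Of 187 values of single subunits and list medians, 165 moved by less than the SD between repeated spots and 22 by more. These counts include the deposited value table and the gene filters, which could not move the ratio of a kept subunit. Over all genes the 2-fold count was 71 higher and 59 lower as reported, 19 and 18 with normexp, 4 and 2 among brighter genes, 666 and 606 without a filter and 289 and 270 with the looser rule. At 1.2-fold it was 964 and 781 as reported, and 554 and 476, 146 and 76, 2303 and 2052, and 1646 and 1456 in the same order. The filters test different numbers of genes; the cause of the other differences was not tested. The ratios of Rac2 and Duox1 without 1 spot were added after seeing the data. No paired analysis was possible because each group has 1 pooled sample. Signals below 128 carry the least information on ratios; among the subunits these are Nox1, Cybb, Ncf1 and the second Nox4 probe.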

Other observations

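The other marker lists give the cellular setting of these oxidase readings. Smooth muscle markers were all measured, 10 of 10, with a median log2 ratio of 0.12 and 2 higher past 1.2-fold. Acta2 had signals of 270063 in high and 280589 in normal glucose, Tagln 246134 in high and 256910 in normal glucose and Cnn1 103396 in high and 103789 in normal glucose. After scaling, their log2 ratios were 0.025, 0.018 and 0.074. The 2 past 1.2-fold, named after their values were seen, were Myocd and Mylk. Myocd had dim signals of 54.7 in high and 33 in normal glucose, and Mylk 1299 in high and 1140 in normal glucose. Fibroblast markers were measured in 10 of 12 cases, with a median of -0.09 and 2 lower past 1.2-fold, and S100a4, Col1a2 and Col1a1 were the brightest. Pericyte markers had a median of -0.03, with 2 higher and 1 lower past 1.2-fold, beside 12.3% of all measured genes in either direction. These were named after their values were seen, and all were dim. Art3, past 2-fold, had 63.3 in high and 28.8 in normal glucose, a log2 ratio of 1.21. Rgs5 had 132.8 in high and 93.9 in normal glucose, and Abcc9 99.3 in high and 143.5 in normal glucose. A further 2 pericyte markers were dim on both arrays.

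Endothelial markers, which would include another cell type known for Nox4, were measured in 7 of 12 cases, with a median of 0.005 and 1 lower past 1.2-fold. The other 5 were dim on both arrays. Kdr, Egfl7 and Eng were the brightest. Kdr had 7075 in high and 7379 in normal glucose, a log2 ratio of 0.02, but -0.27 on its other probe. Pecam1 and Vwf, named after their values were seen, were dim. Pecam1 had 85.1 in high and 82.9 in normal glucose, and Vwf 48.5 in high and 74 in normal glucose. Epithelial markers, from the cell type in which Nox1 and Noxo1 are best known, were measured in 5 of 11 cases. Their median of 0.23 was the ratio of Krt5, from dim signals of 50.6 in high and 45.8 in normal glucose. The 2 past 1.2-fold, both higher, were Krt14 and Esrp1, each with a mean signal below 128. In that range, 40.8% of all measured genes passed 1.2-fold. Krt14 had 37.6 in high and 29.8 in normal glucose. Krt5 and Krt14 were named after their values were seen. Krt19 had 3509 in high and 3234 in normal glucose, Krt18 538 in high and 594 in normal glucose, and Esrp1 134 in high and 114 in normal glucose. The log2 ratio of Esrp1 was 0.32, but 0.095 from median pixel signals.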
